A study of Mus musculus with 5 samples.

Results

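The genes of the mitochondrial ribosome were examined in SLAMseq libraries of mouse cardiac fibroblasts (CF). The members are all gene names of the deposited tables that begin with Mrpl or Mrps followed by a digit, 78 of 20365 names, with 49 Mrpl and 29 Mrps genes on 17 chromosomes. Each gene was represented by 1 counted 3′ interval, the one whose mean CPM with S4U was highest, out of 119 member intervals among 40428. For 14 members the highest mean CPM was tied between intervals, and the first by chromosome and coordinates was taken. CF were isolated by collagenase digestion from hearts of adult healthy male C57Bl/6J wildtype mice and grown to confluency. In 3 libraries the cells had received 0.1 mM 4-thiouridine (S4U) for 12 h (labeled), and in 2 libraries they were kept for 12 h without S4U (unlabeled). RNA of all 5 was alkylated, and S4U is the one difference between the groups that the labels give. The labels do not say whether a labeled and an unlabeled library came from the same cell preparation, and p-values measure the spread between these libraries.

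The mitochondrial ribosome translates the few proteins encoded by mitochondrial DNA, which are core subunits of the respiratory chain and ATP synthase. Its RNAs come from mitochondrial DNA, whereas all of its proteins are encoded in the nucleus, made in the cytosol and imported. Some of these proteins descend from the bacterial ribosome and others were gained in mitochondria. In SLAMseq, S4U built into new RNA is alkylated, which turns a T of the read into a C. The T>C conversion rate, the percentage of covered T positions read as C, therefore rises with the portion of a transcript made during labeling.

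By the assignment used here, 51 members belong to the large subunit, 26 to the small subunit, and 1, Mrps36, is known as a component of the 2-oxoglutarate dehydrogenase complex and is not a ribosomal subunit. Mrps30 and Mrps18a carry small-subunit names but sit in the large subunit and were counted there. A bacterial counterpart is known for 46 members, and 31 are specific to mitochondria.

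On 1 interval per gene, 506045 to 1842863 reads were counted per library. The members held 5601, 4622 and 1642 of these in the labeled libraries, replicates 1 to 3, and 6579 and 3067 in the 2 unlabeled ones. At this depth 74 of 78 members had reads in every library, and 61 had at least 10 reads in every labeled library. Markers of fibroblasts were abundant, with a median deposited CPM of 151.6 over 10 genes, against 1.25 for 8 macrophage, 1.49 for 5 endothelial, 0.170 for 4 mural and 0.0236 for 6 cardiomyocyte markers. The cardiomyocyte genes Actn2 and Ryr2 had no read in any labeled library.

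Promoters are shown for the 4 members for which 1000 or more T positions were covered in each labeled library, and for Mrps11, whose start lies beside that of another member. The windows are RefSeq sequences of GRCm38.p6, 5′ to 3′, from 250 bases before to 50 bases after the start of the gene. Capitals mark matches, on either strand, to 4 short motifs. These were CCGGAAG, a core of sites for ETS factors, GCGCATGC, a core of the site for NRF1, a regulator of nuclear genes for mitochondrial proteins, AAGATGGC, an element bound by YY1, and TATAAA, the TATA box. The last 3 letters of the ETS core are the first 3 of the YY1 element, so that 1 stretch can match both.

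Mrpl33, chr5:31613701-31614000, + strand: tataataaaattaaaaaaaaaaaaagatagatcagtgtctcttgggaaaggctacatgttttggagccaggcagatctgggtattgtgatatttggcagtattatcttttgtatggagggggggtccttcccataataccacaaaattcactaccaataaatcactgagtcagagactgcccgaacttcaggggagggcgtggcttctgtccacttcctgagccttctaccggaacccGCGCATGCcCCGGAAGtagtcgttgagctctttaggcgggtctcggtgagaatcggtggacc

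Mrpl53, chr6:83108858-83109157, + strand: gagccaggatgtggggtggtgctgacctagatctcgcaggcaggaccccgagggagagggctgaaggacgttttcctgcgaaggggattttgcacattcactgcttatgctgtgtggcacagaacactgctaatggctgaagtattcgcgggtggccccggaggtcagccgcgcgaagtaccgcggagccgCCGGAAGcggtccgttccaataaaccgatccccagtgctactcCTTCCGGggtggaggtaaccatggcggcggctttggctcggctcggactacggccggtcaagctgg

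Mrps14, chr1:160194965-160195264, + strand: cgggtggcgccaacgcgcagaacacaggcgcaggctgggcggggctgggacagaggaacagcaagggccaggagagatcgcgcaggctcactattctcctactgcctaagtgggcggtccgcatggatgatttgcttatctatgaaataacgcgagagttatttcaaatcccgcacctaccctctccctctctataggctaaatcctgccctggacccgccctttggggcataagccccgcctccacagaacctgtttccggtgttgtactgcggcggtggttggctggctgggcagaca

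Mrps17, chr5:129715247-129715546, + strand: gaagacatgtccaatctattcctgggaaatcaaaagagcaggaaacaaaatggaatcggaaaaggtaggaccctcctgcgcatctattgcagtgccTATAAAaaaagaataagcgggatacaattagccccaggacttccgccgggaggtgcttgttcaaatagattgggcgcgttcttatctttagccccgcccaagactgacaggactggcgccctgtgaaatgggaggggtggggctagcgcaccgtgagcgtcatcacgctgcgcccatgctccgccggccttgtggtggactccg

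Mrps11, chr7:78782881-78783180, + strand: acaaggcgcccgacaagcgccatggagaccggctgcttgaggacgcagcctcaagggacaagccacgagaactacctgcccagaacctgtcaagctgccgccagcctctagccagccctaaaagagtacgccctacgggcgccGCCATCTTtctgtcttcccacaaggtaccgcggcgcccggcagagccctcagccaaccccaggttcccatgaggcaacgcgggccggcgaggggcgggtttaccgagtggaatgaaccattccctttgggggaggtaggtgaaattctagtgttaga

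The Mrpl33 window holds an ETS core next to an NRF1 core, the Mrpl53 window an ETS core on each strand, the Mrps17 window a TATA box far upstream of the start, and the Mrps11 window a YY1 element in the reverse direction. The Mrps14 window has none of the 4 motifs. A promoter window was at hand for 69 of the 78 members. The ETS core was present in 26 of the 69 (37.7%), against 9.93% of all 27025 genes with a window and 21.4% of the 7871 among them whose reads could be tested here. The YY1 element was present in 12 members (17.4%, against 3.19% and 5.67%), and the NRF1 core in 8 (11.6%, against 3.05% and 6.44%). At least 1 of these 3 motifs was found in 38 of 69 members (55.1%), against 14.9% of all genes and 30.3% of the genes with tested reads. TATAAA was found in 5 members (7.25%), against 15.7% and 8.51%. No member held an ETS core joined to a YY1 element. The median GC content was 58.3% in the members, 52.7% in all genes and 61.7% in those with tested reads. These are matches of letters in the windows and not measured binding.

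A protein-coding gene on the opposite strand started within 1000 bases upstream of 14 members (17.9%), against 1098 of 21751 coding genes (5.05%) in the GRCm39 annotation. Mrpl46, of the large subunit, and Mrps11, of the small subunit, were each other's partner with starts 30 bases apart. Mrpl43 lay 56 bases from Twnk, the mitochondrial DNA helicase, and Mrps12 lay 129 bases from Sars2, the mitochondrial seryl-tRNA synthetase. Mrpl49 lay 52 bases from Fau, which encodes a cytosolic ribosomal protein fused to a ubiquitin-like protein, and Mrpl32 lay 54 bases from Psma2, a proteasome subunit. These 5 pairs were picked for their partners after the list was seen.

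The members were transcripts of moderate level, somewhat above the median gene read in these cells. Their median deposited CPM in the labeled libraries was 3.65, with quartiles of 1.78 and 4.88, and the median was 2.59 over the 11420 genes that were read in every labeled library and 0.452 over all 20365. Of the members, 75 of 78 were read in every labeled library. It was 5.17 for 87 cytosolic ribosomal protein genes and 7.14 for 89 nuclear genes of the respiratory chain. The levels of most members lay close together, since 65 of 78 were between 1 and 10 CPM, 4 reached 10 or more and 9 were below 1. QuantSeq counts 1 fragment near the 3′ end of a transcript, so that CPM was not divided by length. Together the members took 0.355%, 0.387% and 0.324% of the counted reads in labeled replicates 1 to 3, and 0.357% and 0.308% in the unlabeled libraries. The shares of the groups overlapped. In bulk RNA, fewer cells with a transcript and less of it per cell cannot be told apart.

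**Figure D1:**
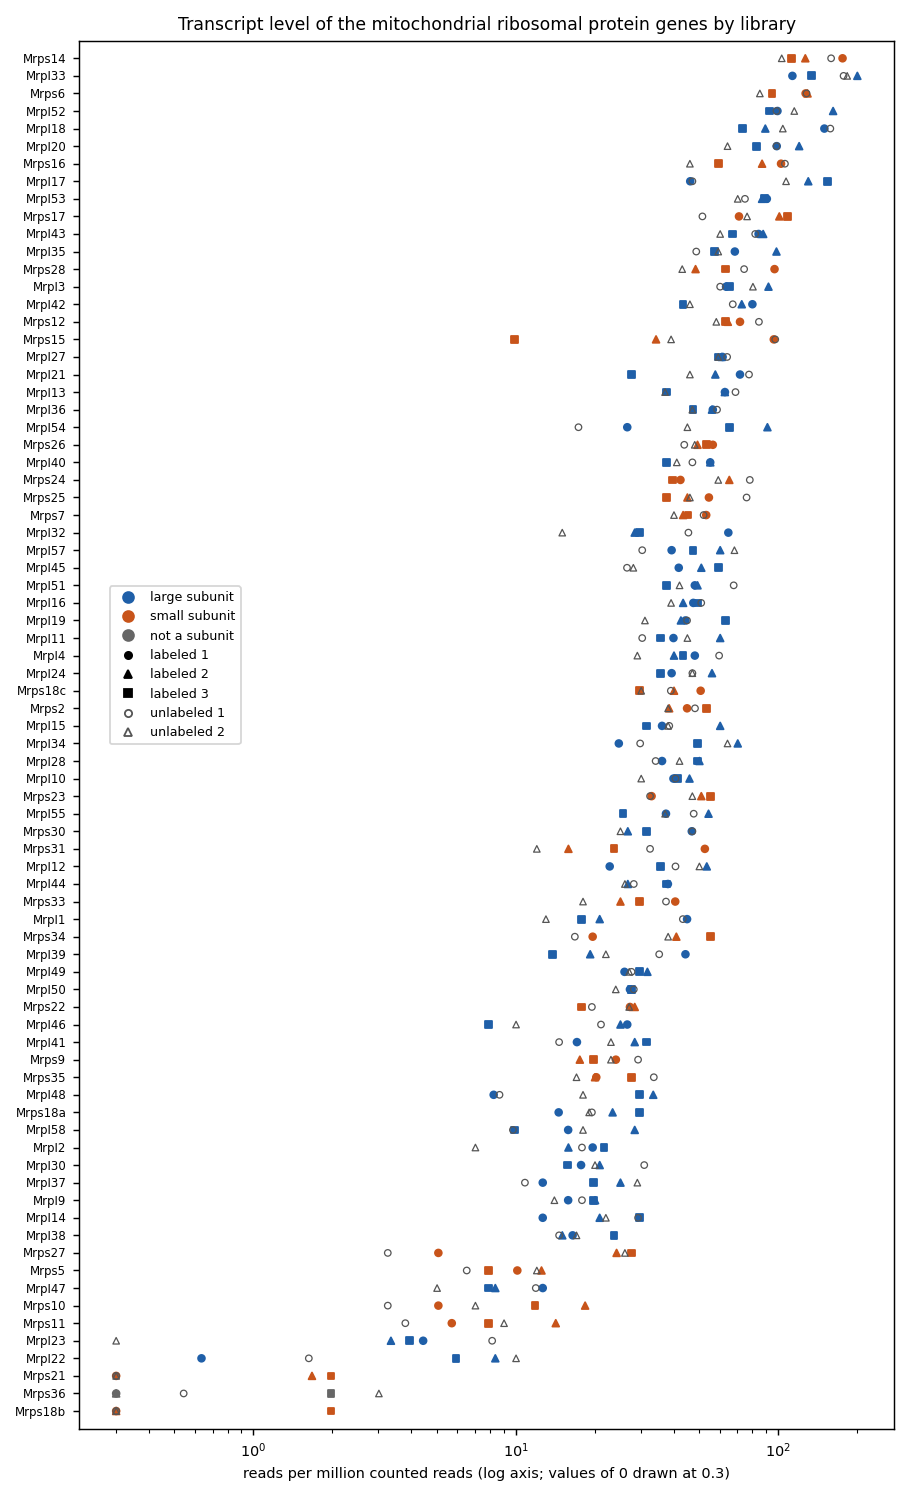
CPM relative to counted reads of the 78 members (log axis) in each library, ordered by mean deposited CPM, with filled symbols for labeled and open symbols for unlabeled libraries and colours for the subunit. Most members lie within a narrow band, the symbols of the groups overlap, and Mrps15 spreads widely over libraries.

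By mean deposited CPM, the 5 highest members came from both subunits. Mrps14, a protein of the head of the small subunit, had 278, 152 and 57 reads in the labeled and 294 and 103 in the unlabeled libraries, with 12.7 ± 9.82 CPM (SD, n = 3 labeled). Mrpl33, a small protein of the large subunit with a bacterial counterpart, had 179, 240 and 68 reads against 328 and 183, with 12.2 ± 6.63 CPM. Mrps6, of the platform of the small subunit, reached 10.4 ± 6.79 CPM, the mitochondria-specific Mrpl52 10.04 ± 5.92 and Mrpl18, whose bacterial counterpart binds 5S rRNA, 9.99 ± 8.9. Within libraries the order of these 5 changed, with most reads among them for Mrps14 in labeled replicate 1 and for Mrpl33 in labeled replicates 2 and 3. Mrps14 had more reads than Mrpl18 (237, 107 and 37) in 3 of 3 labeled libraries. Mrpl17, outside these 5 and picked after its values were seen, had 73, 156 and 78 labeled reads. Its reads exceeded those of Mrps14 and Mrpl18 in labeled replicates 2 and 3, and those of Mrpl33 in labeled replicate 3. The SD of the deposited CPM include a scale that all genes of a library share. For 73 of 78 members the deposited CPM was lowest in labeled replicate 3, whose CPM rests on a number of reads that is large for its counted reads, and libraries were therefore compared on counted reads. The Mrpl33 interval overlaps the annotated gene Gm43809 on its own strand, and that of Mrps6 overlaps Gm49711, so reads of these pairs cannot be told apart.

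The 3 lowest members were at the limit of detection. Mrps18b had 1 read in labeled replicate 3 and none elsewhere. Mrps36 had 1 read in labeled replicate 3, and 1 and 3 reads in the unlabeled libraries. Mrps21 had 2 reads in labeled replicate 2, 1 in labeled replicate 3 and none in the others. The last 75 bases of all 3 intervals have a second match in GRCm39 that is identical over at least 80% of their length, and so do those of Mrpl22 and Mrpl23, the next lowest, which were picked after their values were seen. Among the 78 members, 25 have another match of at least 90% identity and 8 an identical one, which include Mrpl52 among the highest, whose whole interval has 22 bases. The part of these matches in the counts was not tested.

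The paralogs named Mrps18 differed widely in level. Mrps18c, the counterpart of the bacterial protein in the small subunit, had 3.71 ± 2.85 CPM, Mrps18a, placed in the large subunit, 1.65 ± 0.538, and Mrps18b 0.0228 ± 0.0395. Mrps18b, with 0, 0 and 1 labeled reads against 23, 28 and 15 for Mrps18a and 80, 48 and 15 for Mrps18c, was the lowest in every library, and it is the one with an identical second match. Mrps18c had more reads than Mrps18a in 2 of the 3 labeled libraries and as many in the other. The measured interval also set what was counted. The annotated end of the canonical transcript fell in the interval of 40 members, and the intervals ran from 19 to 6075 bases, with 9 under 100 bases.

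A pair of short intervals is shown in full, in GRCm39 coordinates, with T positions in capitals, because all conversions of these members were counted on a handful of positions.

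Mrpl52, chr14:54667186-54667207, + strand: aaagcagcTccTgccccacTTT

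Mrps15, chr4:125949311-125949329, + strand: TaaagTcTgTTcccgTgaa

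The interval of Mrpl52 has 22 bases with 5 T, and that of Mrps15 19 bases with 6 T. Mrps15, the counterpart of a bacterial small-subunit protein that binds rRNA, had 152, 41 and 5 reads in the labeled and 180 and 39 in the unlabeled libraries. Scaled to library size by TMM, these were 96.6, 35.1 and 10.6 CPM with S4U and 92.2 and 39.6 without. Both replicates numbered 1 were high, labeled replicate 3 was the lowest, and the groups overlapped.

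S4U labeling raised the T>C rate of every member that could be tested. The beta-binomial test on conversions and covered T positions was at an unadjusted p below 0.05, the threshold of the study, in 74 of 74 members, with a largest p of 0.0407 for Mrps11, against a background of 95.1% of 11179 genes, a share close to that of the members. In Mrps11, the member with the largest p, the labeled rates of 1.33%, 2.81% and 6.56% overlapped the unlabeled ones of 1.47% and 0%. Mrpl23, Mrps18b, Mrps21 and Mrps36 had no covered T in at least 1 library and were not tested. Summed over the members, the rate was 3.77%, 3.62% and 3.70% in the labeled libraries (3.70% ± 0.0752, SD, n = 3) and 0.153% and 0.0742% in the unlabeled libraries. All genes summed gave 3.47%, 3.51% and 3.48%, and 0.115% and 0.0678% without S4U. Of the members' reads, 45.4% ± 1.72 held a conversion in the labeled libraries (43.9%, 45.1% and 47.3%), and 2.55% and 1.34% in the unlabeled. Without S4U, 28 members with reads had no conversion in either library.

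**Figure D2:**
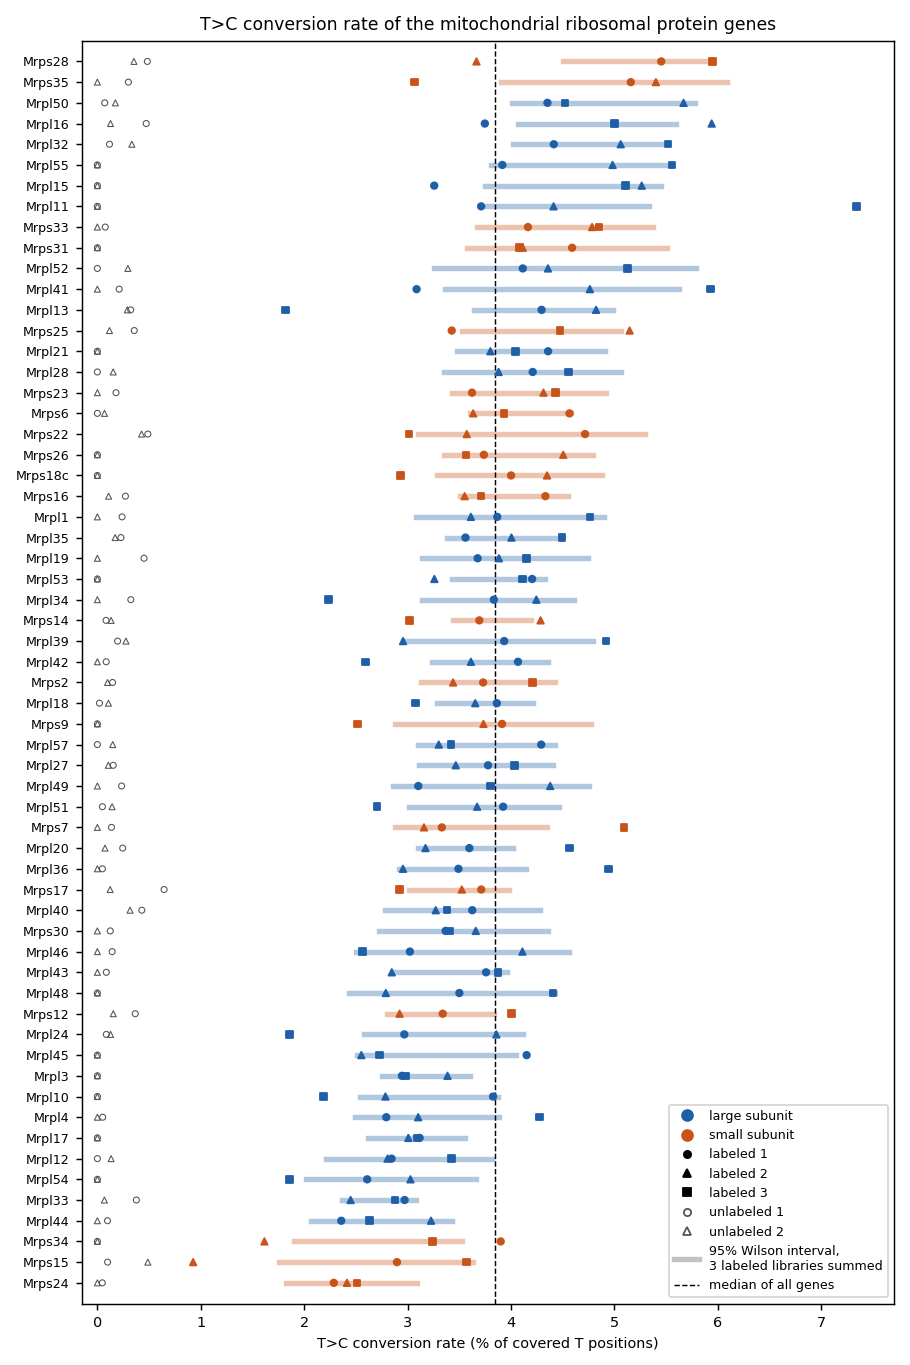
T>C conversion rate (percent of covered T positions) of the 60 members with at least 1000 covered T positions over the labeled libraries, with filled symbols for labeled and open symbols for unlabeled libraries and bars for the 95% Wilson interval of the summed labeled libraries. Labeled and unlabeled symbols do not overlap for these members, and most bars cross the dashed median of all genes at 3.85%.

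With S4U, the members had rates close to those of the median gene. Over the 60 members with at least 1000 covered T positions in the summed labeled libraries, the median was 3.74% with quartiles of 3.36% and 4.13%, against 3.85% with quartiles of 3.41% and 4.21% over 7701 genes. In labeled replicates 1, 2 and 3 the medians of these 60 members were 3.74%, 3.64% and 3.84%, and those of the 7701 genes 3.75%, 3.87% and 3.85%. The difference was -0.083 percentage points ± 0.125 (SD over 3 libraries), which is smaller than its spread. The Wilson interval of the pooled rate, which covers counting error only, held the median of all genes for 45 of the 60 members, lay below it for 10 and above it for 5.

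The members had higher T>C rates than the genes of the cytosolic ribosome. The median of 51 cytosolic ribosomal protein genes was 2.46%, with a range from 0.933% to 4.72%, and per library it was 2.28%, 2.49% and 2.33%. The mitochondrial members were higher by 1.46, 1.15 and 1.51 percentage points (1.37 ± 0.193), in 3 of 3 libraries. Of the reads of cytosolic ribosomal proteins, 23.1% ± 1.75 held a conversion, compared with 45.4% of the members' reads. Against 71 respiratory chain subunits, which include the assembly partners of the proteins made by this ribosome and had a median of 3.31%, the members were higher by 0.699, 0.201 and 0.671 percentage points (0.524 ± 0.280). Both differences exceeded their spread over libraries, and no p is given, since an exact permutation test over 3 libraries cannot reach 0.05. The cytosolic genes were also more abundant, and their intervals were shorter, with a median of 72 bases against 304.5 for the members, and had fewer T positions per read, 12.3 against 16.5. The respiratory chain genes also had a higher median level than the members, with a median of 146 bases and 15.8 T positions per read. A read with more T positions has more places for a conversion, so the shares of reads with a conversion are not set by the rate alone. The part of level, length and T positions per read in the differences was not tested.

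**Figure D3:**
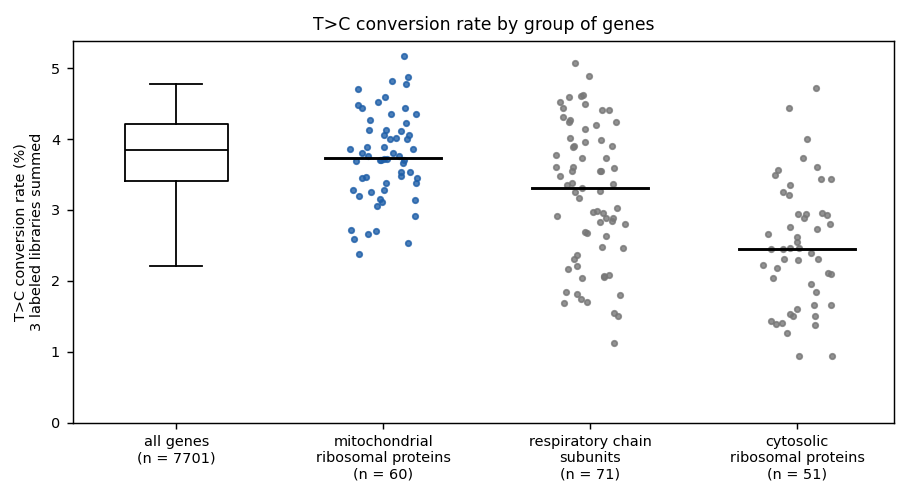
T>C conversion rate (percent, 3 labeled libraries summed) of all genes, mitochondrial ribosomal proteins, respiratory chain subunits and cytosolic ribosomal proteins with at least 1000 covered T positions. Points are genes, lines are medians, and the box of all genes spans the quartiles with whiskers from the 5th to the 95th percentile; the medians are 3.85%, 3.74%, 3.31% and 2.46%.

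**Figure D4:**
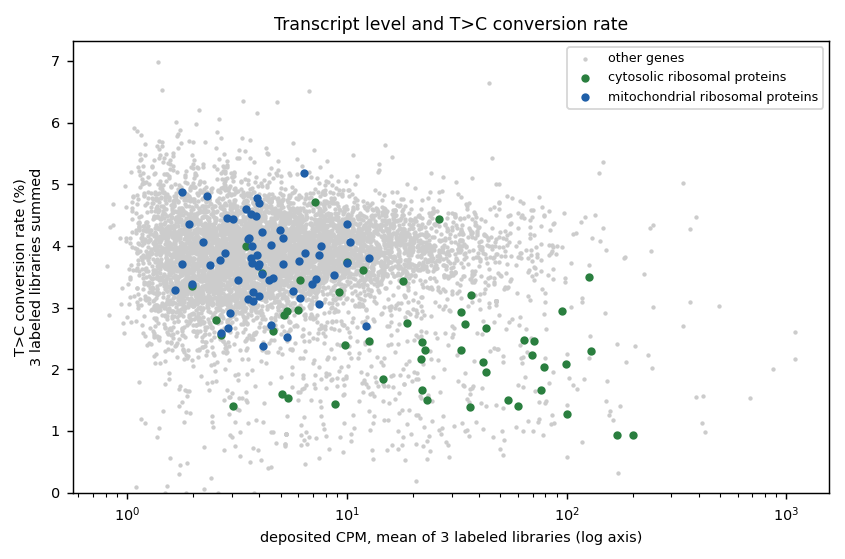
T>C conversion rate (percent, 3 labeled libraries summed) against mean deposited CPM (log axis) for mitochondrial ribosomal proteins, cytosolic ribosomal proteins and other genes. The mitochondrial members stay within a narrow range of levels and lie in the main cloud of genes, while cytosolic genes reach higher levels and lower rates.

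Within the ribosome, large-subunit members had somewhat lower summed rates than small-subunit members. The difference of their medians changed sign with the library and with the coverage minimum. Summed over the members of a subunit, the rate was 3.66%, 3.57% and 3.69% for the large and 3.97%, 3.72% and 3.74% for the small subunit. The means were 3.64% ± 0.061 and 3.81% ± 0.137 (SD, n = 3), with the large subunit lower in 3 of 3 labeled libraries. Without S4U the rates were 0.132% and 0.0660% for the large and 0.191% and 0.0912% for the small subunit. The 40 large-subunit members had a median pooled rate of 3.70% and the 20 small-subunit members one of 4.00%. The difference of library medians, large minus small, was -0.0898, -0.0171 and 0.311 percentage points (0.068 ± 0.213), with a mean smaller than its spread. It was positive in labeled replicate 3 alone. Over the 45 large-subunit and 20 small-subunit members with at least 100 covered T positions in each labeled library, it was -0.142, -0.0876 and -0.0197 percentage points (-0.083 ± 0.0612), lower for the large subunit in 3 of 3 libraries. Members with a bacterial counterpart (35 genes, 3.72%) and mitochondria-specific members (25 genes, 3.76%) were close. Their differences of library medians were -0.188, -0.0248 and 0.443 percentage points. Across members, the rate had a Spearman rho of -0.145 with level, 0.084 with interval length and 0.223 with T positions per read, all measured in the same libraries. Between labeled libraries, the rates of the 65 members with at least 100 covered T positions in each had rho of 0.337, 0.151 and 0.318. The levels of all 78 members had rho of 0.760, 0.726 and 0.878. The order of levels was shared more between libraries than the order of rates, over unlike sets of members. The part of counting error in this was not tested.

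Only 4 members met the minimum of 1000 or more covered T positions in each labeled library, and counting error of their rates in single libraries was not given. Mrpl53, a mitochondria-specific protein of the large subunit, had 4.20%, 3.26% and 4.11% (3.86% ± 0.521, n = 3), and no conversion in the unlabeled libraries, which allows a rate of up to 0.0559%. Mrps14 had 3.69%, 4.29% and 3.02% (3.67% ± 0.634) and 0.0839% and 0.133% without S4U. Mrps17, of the body of the small subunit, had 3.71%, 3.52% and 2.92% (3.39% ± 0.412), and 0.645% and 0.123% without. These 3 overlapped between libraries. Mrpl33 was the lowest of the 4 at 2.97%, 2.45% and 2.88% (2.77% ± 0.279), with 0.377% and 0.0678% without S4U and a pooled Wilson interval of 2.36% to 3.08%. Its rate was below that of the other 3 members in labeled replicates 1, 2 and 3, with the closest neighbour in replicate 3 at 2.92%.

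Some members kept their side of the median gene in every labeled library. Of 65 members compared, 8 were above it in all 3 libraries (Mrpl16, Mrpl28, Mrpl32, Mrpl50, Mrpl52, Mrpl55, Mrps31 and Mrps33), against a background of 21.3% of 8394 genes above in all 3. Another 13 were below it in all 3 (Mrpl2, Mrpl3, Mrpl9, Mrpl12, Mrpl14, Mrpl17, Mrpl33, Mrpl40, Mrpl44, Mrpl54, Mrps17, Mrps24 and Mrps30), against 21.7%. Neither count exceeded the background share. At the extremes of the 60 pooled rates, picked after the values were seen, Mrps24, a protein of the mRNA entry side of the small subunit, had 2.29%, 2.41% and 2.51%, with a pooled interval of 1.83% to 3.09%. Mrps28, also of the small subunit, had 5.45%, 3.67% and 5.95%, with a pooled interval of 4.50% to 5.95% and 0.483% and 0.353% without S4U. The lowest member was steady over libraries, whereas the highest was not.

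Some members have known roles beyond the common core. Mrpl12, a stalk protein also known to bind mitochondrial RNA polymerase, had 3.02% ± 0.345. Mrpl44, which resembles RNase III, had 2.74% ± 0.444, and Mrpl58, a peptidyl-tRNA hydrolase built into the large subunit, 3.73% ± 0.523. Mrps30 had 3.48% ± 0.158. Of the paralogs, Mrps18a had 4.05% ± 1.5 and Mrps18c 3.76% ± 0.74, each without conversions in the unlabeled libraries, and Mrps18b had too few reads for a rate. The head-to-head pair Mrps11 and Mrpl46 had pooled rates of 3.12% (Wilson interval 1.79% to 5.37%) and 3.39% (2.51% to 4.56%), which overlap.

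Of the subunits known by other names, Dap3, Chchd1 and Aurkaip1 were covered deeply enough and had rates within the range of the members. Dap3, a GTP-binding protein of the small subunit, had 2.81% ± 0.231 and Ptcd3, a pentatricopeptide protein near the mRNA channel, 3.72% ± 0.73. Chchd1 had 4.05% ± 0.385, Aurkaip1 3.62% ± 1.63 and the large-subunit protein Gadd45gip1 3.84% ± 1.22. Ptcd3 had only 17, 2 and 3 labeled reads, and Gadd45gip1 18, 31 and 7. Their covered T positions, 326 and 276 over the summed labeled libraries, fell below the minimum used for the members. The rates of Ptcd3 and Gadd45gip1 therefore rest on few positions and were not placed against that range. All 5 were raised over the unlabeled libraries, as were 95.1% of 11179 genes. Their deposited CPM was 4.90 for Dap3, 0.590 for Ptcd3, 9.93 for Chchd1, 6.75 for Aurkaip1 and 1.40 for Gadd45gip1. For assembly factors of the mitochondrial ribosome, 28 names were listed, of which Gtpbp5 and Wbscr16 are other names of the listed Mtg2 and Rcc1l. The remaining 26 genes were all found, and 24 of 26 tested had a raised rate, against a background of 95.1% of 11179 genes. Their median was 3.97% over the 7 genes covered deeply enough. Among factors of mitochondrial translation, 19 of 20 were found, all 19 were raised, against the same background, and the median was 3.83% over 8 genes.

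The read counts asked whether 12 h of S4U itself changed the level of these transcripts. No member was called at an adjusted p below 0.05 by the quasi-likelihood test of edgeR, adjusted after Benjamini and Hochberg, 0 of 74 tested, and neither was any of the 9807 genes (0% higher and 0% lower). Unadjusted, the same test had 1 member higher at p below 0.05, Mrpl45, and 0 lower, against 2.84% and 3.12% of all genes. DESeq2 called 0 members and, over all genes, 13 higher and 6 lower. A fit with the replicate number as a block called 3 members higher, Mrpl35, Mrpl45 and Mrpl54, and 0 lower, against 5.38% and 6.29% of all genes, although the labels do not tie libraries of the same number to 1 preparation. The fitted changes were mostly small and positive. Their median was 0.23 on the log2 scale against 0.02 over all genes, and 57 of 74 (77.0%) were above 0 against 51.7% of all genes. Without unlabeled replicate 2 the median was 0.10 against 0.041 over all genes, and 46 of 75 members were above 0, so that the excess over all genes rests to a large degree on 1 library. The median SE of a member was 0.366, with a range from 0.248 to 1.15, so that a change of the size of the median is within the error of a single member.

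**Figure D5:**
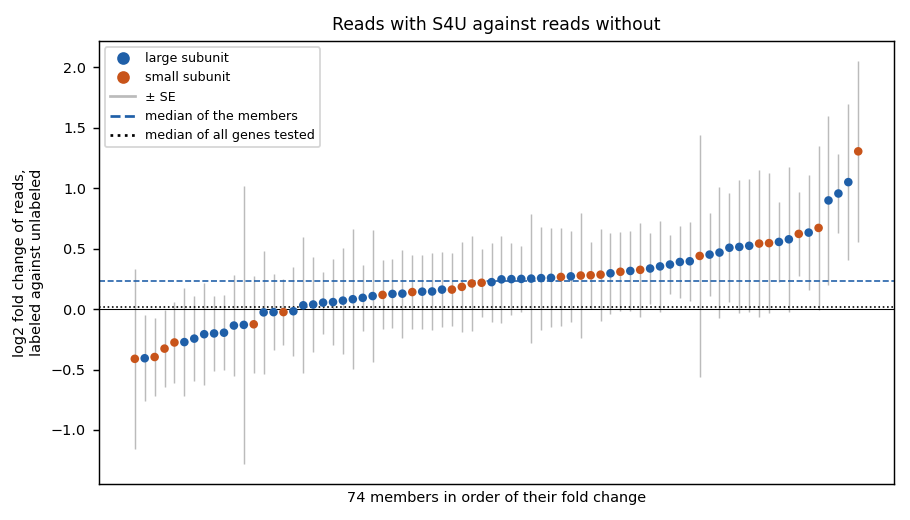
Log2 fold change of reads, labeled against unlabeled, with its SE for the 74 members tested, in order of the change and coloured by subunit. The points run from -0.41 to 1.30, most lie above 0, and the dashed median of 0.23 lies above the dotted median of all genes at 0.02.

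By subunit, the medians were 0.23 for 50 large-subunit members (39 above 0) and 0.24 for 24 small-subunit members (18 above 0). The median was 0.12 for 77 respiratory chain subunits (48 above 0) and 0.06 for 64 cytosolic ribosomal proteins (36 above 0), and -0.10 for 15 translation factors (5 above 0). It was 0.28 for the 5 subunits under other names (4 above 0) and 0.20 for 17 assembly factors (10 above 0). Fibroblast markers had a median of 0.24 (9 of 10 above 0), so that other lists had medians as high as that of the members. Macrophage markers had a median of 0.03 (4 of 6 above 0) and endothelial markers one of -0.31 (0 of 5 above 0). For 9 of 74 members (12.2%) every labeled library was above both unlabeled libraries, against 10.4% of all genes, and for 0 every labeled library was below both, against 11.1%.

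Mrpl45, a protein at the exit of the nascent chain that anchors the ribosome to the inner membrane, had the lowest p. Its TMM-scaled CPM was 42.0, 52.2 and 63.4 with S4U and 25.1 and 28.4 without, so the groups did not overlap. The log2 fold change was 0.96 (SE 0.324), with an unadjusted p of 0.0213 and an adjusted p of 0.731 in edgeR's quasi-likelihood test. Mrps10, of the head of the small subunit, had a larger fitted change, 1.30 (SE 0.748), on 8, 22 and 6 reads against 6 and 7. The groups overlapped after scaling, at 5.09, 18.8 and 12.7 against 3.07 and 7.11 CPM. Mrpl54, a mitochondria-specific protein, had 26.7, 93.3 and 69.7 against 16.4 and 45.7, a change of 1.05 (SE 0.645) with overlapping groups, although the labeled library was the higher one at both shared replicate numbers. Mrpl48, of the central protuberance of the large subunit, had a change of 0.90 (SE 0.701), and Mrps11 one of 0.67 (SE 0.680).

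The 5 members with the lowest fitted changes did not pass the test either. Mrps15 was at -0.41 (SE 0.745), Mrpl30 at -0.41 (SE 0.357) and Mrps24 at -0.40 (SE 0.324). Mrps25 was at -0.33 (SE 0.318) and Mrps9 at -0.28 (SE 0.337). For Mrps15 and Mrps25 the sign turned without unlabeled replicate 1, to 0.34 and 0.026. In Mrps24 the labeled libraries were at 42.6, 66.8 and 42.3 TMM-scaled CPM and the unlabeled at 73.8 and 59.9, which overlap. No subunit called lower was thus found, and neither the assembly factors (17 tested) nor the translation factors (15 tested) nor the 5 subunits under other names held a called gene.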

How the data were processed

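SLAMseq libraries of CF, 3 labeled and 2 unlabeled, were grouped by the submitters' labels. The authors prepared 3′ end libraries with unique molecular identifiers, processed them with SLAM-DUNK (0.4.3 per the file headers) on mm39, collapsed duplicates by UMI-tools, and deposited per interval the counts of reads, of reads with a conversion, of covered T positions and of T>C conversions, unnormalized. The deposited conversion rate is a fraction, conversions over covered T positions, printed here as percent. The deposited CPM relates reads to a library total that exceeds the reads counted on the intervals.

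Repeated entries entered once. All 119 member intervals had the T content of GRCm39 at their coordinates. A two-sided beta-binomial likelihood-ratio test compared the rates of intervals that had 1 or more covered T in each library. For read counts, the quasi-likelihood test of edgeR was run with TMM and filterByExpr, and p-values were adjusted after Benjamini and Hochberg over all genes. The 3′-most 75 bases of each interval were searched with blastn (2.17.0+). Intervals are 95% Wilson intervals, and a count of 0 was given a limit of 3 conversions; both cover counting error only, since T positions of 1 read are not independent. Software was edgeR 4.0.16, DESeq2 1.42.0 and limma 3.58.1 in R 4.3.3, and scipy 1.17.1 in Python 3.11.15, and the tests were tried on simulated data.

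Members and gene lists were chosen with earlier results of these data known. The members named were the 5 highest and lowest rates among those deeply covered, of which there were only 4, the 5 highest and 3 lowest CPM, the 5 largest changes of reads in each direction, members called in any fit, the Mrps18 paralogs, members with other known roles and the subunits under other names. Members given outside this rule are listed by count or said to be picked after their values were seen. The minimum of 1000 covered T positions over the summed labeled libraries was added after the data were seen. Alternatives were other coverage minimums, normalizations, filters and tools, summed intervals, the replicate number as a block, and each library left out in turn.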

Additional observations from a re-analysis of the deposited data

How the results depend on the processing

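The count of members with a raised T>C rate was 72 to 74 with each library left out in turn. A minimum of 1000 covered T positions per library left 4 members, all 4 raised, and one of 100 left 64, all 64 raised. limma on the log odds called 72, and 73 with the replicate block. For the median T>C rate of deeply covered members (3.53% over 4 members), the alternatives gave 3.22% to 3.77%, the lowest without labeled replicate 1, and 3.74% over 60 members. The difference of large minus small subunit members was -0.214 percentage points over these 4 members and moved between -0.388 and 0.204 with a library left out. The difference from all genes, -0.356, stayed negative in every setting run, between -0.677 and -0.0833. The median level of 3.65 CPM was 2.65 to 4.68 with a labeled library left out and 43.2 relative to counted reads, which is another scale. The median log2 fold change of reads (0.23) was 0.10 to 0.25 with a library left out, the lowest, 0.10, without unlabeled replicate 2.

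The labels share replicate numbers but do not say that a number marks a shared preparation. Deviations from the group means correlated by 0.778 and 0.628 for the pairs numbered 1 and 2. Labeled replicate 3 correlated by 0.472 with unlabeled replicate 2 and by -0.472 with unlabeled replicate 1. The deviations of the 2 unlabeled libraries mirror each other, so these values are not separate measures of pairing. With the replicate number as a block, the quasi-likelihood test of edgeR, adjusted after Benjamini and Hochberg, called 3 members and 528 genes higher and 0 members and 617 genes lower, of 74 and 9807 tested. They were Mrpl35 (log2 0.66, adjusted p 0.016), Mrpl45 (0.80, adjusted p 0.0182) and Mrpl54 (0.90, adjusted p 0.00459). In all other settings 0 members were called. Without unlabeled replicate 1, the changes of Mrps15 and Mrps25 reversed to 0.34 and 0.026. Over the libraries left out they ranged from -1.42 to 0.34 and from -0.60 to 0.026. The cause was not tested.

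Depth limits the rates per member, since only 4 members had 1000 covered T positions in every labeled library, and labeled replicate 3, with the fewest counted reads, gives the widest errors.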

Other observations

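Both libraries numbered 1, one labeled and one unlabeled, lay on the same side of the other 3 in part of the members, at shares close to those of all genes. Their scaled reads lay below all other 3 libraries for 18 of 74 members, against 25.5% of all genes, and above them for another 18, against 25.9%. Mrpl54 was among the members that were low in both, with 26.7 and 16.4 TMM-scaled CPM against 93.3, 69.7 and 45.7. Mrps15 was among those high in both, with 96.6 and 92.2 against 35.1, 10.6 and 39.6. Both genes were picked after their values were seen.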
